A study of Mus musculus with 2 samples.

Results

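The messenger RNAs of calcineurin and of the NFAT transcription factors other than Nfatc1 were measured in mouse bone marrow cells cultured without and with RANKL. The 10 genes were taken by name as parts of the known pathway, with no threshold on their values, although earlier results of these data were known when they were named. They are the NFAT factors Nfatc2, Nfatc3, Nfatc4 and Nfat5, the calcineurin subunits Ppp3ca, Ppp3cb and Ppp3r1, the calcineurin regulators Rcan1 and Rcan2, and the NFAT kinase Dyrk1a. They are 10 of the 14870 genes that had an assembled locus in at least 1 library. Of the 10 genes, 9 had a locus in the culture with M-CSF (M) and 10 had a locus in the culture with M-CSF and RANKL (MR).

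Calcineurin is a phosphatase that is switched on by calcium and calmodulin, and it consists of a catalytic A subunit and a regulatory B subunit. It removes phosphates from the cytosolic NFAT factors, which then enter the nucleus, whereas kinases such as Dyrk1a add phosphates and favor their export. In osteoclast precursors, RANKL and costimulatory receptors evoke calcium oscillations, and the calcineurin-NFAT route that follows is known for driving Nfatc1, the transcription factor on which osteoclast differentiation depends. Rcan proteins bind calcineurin and restrain it, and Nfat5 differs from the other NFAT factors in that it responds to tonicity rather than to calcineurin.

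Both cultures held WT mouse bone marrow cells, with no other allele or agent named in the labels. M was kept in M-CSF at 20 ng/mL, and MR was kept in M-CSF for 2 days and then received RANKL at 100 ng/mL together with M-CSF. The labels give 2 days with RANKL, whereas the culture method of the study gives 3 days, and the day on which RNA was taken for sequencing is not named. For M, the labels give 2 days in M-CSF and 0 days with RANKL. Whether M was kept as long as MR is not given in the sources used here. If it was not, time in culture and RANKL cannot be told apart. There was 1 library per culture, so that no difference had a replicate check and no p-value was computed. How many mice contributed to each culture is not given in the sources used here.

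The tables list TPM, an abundance per transcript length that is scaled to the total of its library, so that levels of different genes can be set side by side. The depth in aligned bases was not listed and was estimated from coverage and FPKM. For M this estimate was 3.63 Gb, and for MR it was 2.98 Gb. The study's methods name about 3 Gb of raw reads per sample, which is less than the estimate for M. The reason for this mismatch was not tested. Read pairs, their intervals and values per aligned Gb given below depend on these estimates. The log2 ratio of the MR level to the M level was computed with 1 TPM added to each. It was computed for the 13321 genes that reached 1 TPM in either library. Of these, 21.1% had a log2 ratio above 1 and 13% had a log2 ratio below -1. The median over all 13321 genes was 0.21, and 59.6% of them had the higher TPM in MR. Median-of-ratios scaling moved that median by -0.17, to 0.03. Among the genes that mark the cell types of the cultures, the osteoclast markers Acp5, Ctsk, Oscar, Dcstamp and Calcr had a summed level of 105 TPM in M and 18510 TPM in MR.

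Of the 10 genes, 3 had a log2 ratio above 1, which is 30% beside 21.1% of all genes, and 1 had a log2 ratio below -1, which is 10% beside 13% of all genes. The 3 genes above were Rcan1, Rcan2 and Nfatc4, and the 1 below was Nfatc2. The remaining 6 lay between these limits, and the median of the 10 was 0.60. Of the 10 genes, 8 reached 1 TPM in both libraries, and among these Rcan1 was the 1 gene above the limit and Nfatc2 the 1 gene below it. The share of all genes under that same requirement was not computed. Under a looser one, chosen after seeing the data, a locus was required in both libraries. Of all such genes, 15.3% were above the limit and 9.37% below it, beside 2 and 1 of 9 among the 10 genes. Rcan2 and Nfatc4 entered only through MR and therefore had to differ. In M, the order of levels was Ppp3r1, Ppp3ca, Nfatc2, Ppp3cb, Rcan1, Nfatc3, Dyrk1a, Nfat5 and Nfatc4, with no locus for Rcan2. In MR, Rcan1 stood first and Nfatc2 stood below Rcan2, while Ppp3r1, Ppp3ca, Ppp3cb, Nfatc3, Dyrk1a and Nfat5 followed one another in the same sequence as in M. With 1 library per culture, no spread between samples separates neighbors in either order.

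**Figure D1:**
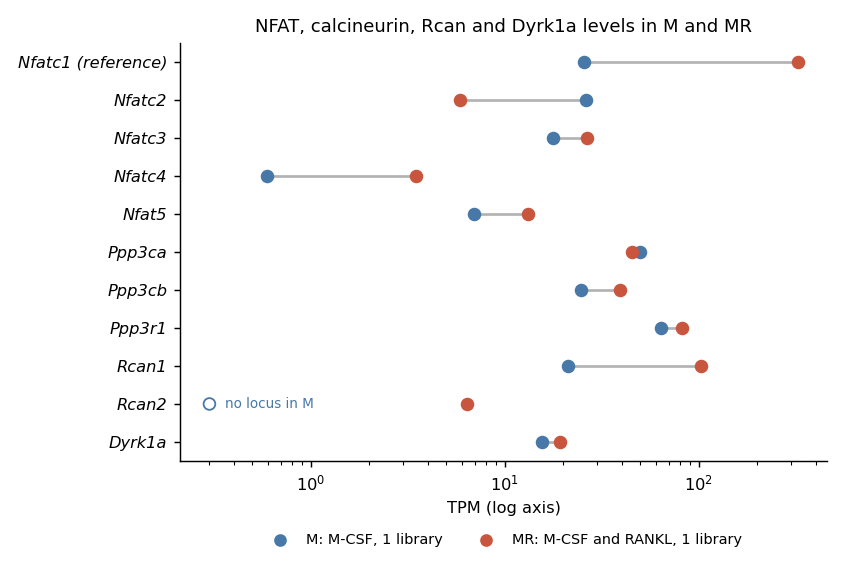
TPM (log axis) of each gene in M (blue) and MR (red), 1 library each, with Nfatc1 for reference and a line joining the values of a gene. The long lines are those of Nfatc1, Nfatc2, Nfatc4 and Rcan1, Nfatc2 is the long line that runs to the lower side, and Rcan2 had no locus in M.

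Because the tables hold no read counts, the number of read pairs behind each value was estimated from FPKM, the aligned bases and the length of an annotated coding transcript, with 300 bases per pair. The shortest coding transcript of each gene was used, which gives the widest interval, and the longest was tried in addition once the data had been seen. The 95% intervals (Wilson) of the ratios cover counting error only and say nothing of the variation between cultures.

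Nfatc2, a calcineurin-dependent factor best known from T cells, was the 1 NFAT gene of 5 with a lower level in MR than in M. It stood at 26.3 TPM in M and 5.87 TPM in MR. The level in M was 4.49 times that in MR, and the log2 ratio of -1.99 was below that of 96.2% of all genes. These values rested on an estimated 341 and 60 read pairs, and the MR to M ratio of 0.223 had an interval of 0.169 to 0.293. In M, 67.0% of the genes compared had a lower TPM than Nfatc2, and in MR 28.7% did. In a bulk culture, fewer cells that express a gene and less RNA per cell cannot be told apart.

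Nfatc2 is annotated on chromosome 2, minus strand, between 168476410 and 168601657 (GRCm38, GENCODE vM21), and its coding transcripts begin at an upstream start or at a start 11292 bases further downstream. The locus reached from 168476415 to 168590315 in M and from 168476502 to 168590341 in MR, so that both began at the downstream start, with 5′ ends 26 bases apart. The 250 bases before that start, at chr2:168590366-168590615 on the minus strand, are shown from RefSeq (GRCm38.p6) because the Nfatc2 loci of both cultures began beside them. Capitals mark the NFAT core GGAAA, or TTTCC where the core lies on the other strand, and the AP-1 motif TGANTCA on either strand. The sequence holds 1 core, which lies 187 bases before the start.
Nfatc2, downstream start: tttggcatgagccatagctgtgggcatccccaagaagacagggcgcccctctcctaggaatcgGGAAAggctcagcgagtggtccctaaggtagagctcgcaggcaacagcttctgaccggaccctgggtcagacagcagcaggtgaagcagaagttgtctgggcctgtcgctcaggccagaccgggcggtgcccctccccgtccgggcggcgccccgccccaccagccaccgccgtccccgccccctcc

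Over 32817 RefSeq windows of equal length, 55.6% hold at least 1 core and 6.38% hold at least 3, and a match of these letters is a description of the sequence and not a binding site. Within an intron of Nfatc2, a separate locus on the plus strand stood at 4.49 TPM in M and 0.754 TPM in MR, and it was not counted to Nfatc2. Its extent held 0 exon bases of the gene. Whether the libraries kept the strand of the RNA is not given in the sources used here.

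Nfatc3, which like Nfatc2 is activated by calcineurin and is widely expressed, was modestly higher in MR. It stood at 17.7 TPM in M and 26.6 TPM in MR, with a log2 ratio of 0.56. The ratio was 1.5 with an interval of 1.29 to 1.74 from about 318 and 376 read pairs. The gene lies on the plus strand of chromosome 8 from 106058840 to 106130537. Its loci covered 99.3% of its exon bases in M and 98.5% in MR. Their 5′ ends were 249 bases apart, the largest distance among the 8 genes with 1 locus in each library.

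Nfat5, the tonicity-responsive member, lies further along chromosome 8, from 107293470 to 107379517 on the plus strand. Its level was 6.97 TPM in M and 13.1 TPM in MR, with a log2 ratio of 0.83, and its loci spanned nearly the whole gene in both cultures, with 5′ ends 8 bases and 3′ ends 3 bases apart. The ratio was 1.89. Its interval was 1.03 to 3.46 with the shortest coding transcript, which gives only 17 and 25 read pairs, and 1.69 to 2.11 with the longest, which gives 522 and 777. The shortest transcript has 432 bases and lies between 107338913 and 107370659, so that it spans only part of either locus.

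Nfatc4, a calcineurin-dependent factor known mainly from heart and nervous tissue, was close to the lower limit of what was assembled. Its level was 0.595 TPM in M and 3.50 TPM in MR, and 7.81% of the genes compared in M and 19.4% in MR had a lower TPM. The gene lies on the plus strand of chromosome 14 from 55823144 to 55833943. In M, 1 locus covered 315 of its exon bases, or 5.42%. In MR, 1 fragment at the same place had a TPM of 1.77 and a second, with 40.4% of the exon bases, had a TPM of 1.73. The ratio of 5.87 rested on an estimated 1 and 5 read pairs and had an interval of 0.909 to 37.9, so that a difference was not detectable at this depth with the shortest transcript. With the longest transcript the interval was 3.25 to 10.6. When the longest locus alone was used, the log2 ratio of Nfatc4 was 0.77 in place of 1.49, and from coverage per aligned Gb it was 0.79, so that in either case it no longer passed the limit.

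Without Nfatc1, the 4 NFAT genes had a summed level of 51.6 TPM in M and 49.1 TPM in MR, so that the sum was similar while its makeup was not. Nfatc2 made up 51.0% of that sum in M and 12.0% in MR. Nfatc3 made up 34.3% and 54.1%, Nfat5 made up 13.5% and 26.8%, and Nfatc4 made up 1.15% and 7.12%. The MR level of Nfatc4 is the sum of fragments at 1.77 and 1.73 TPM, so that the same transcript may be counted in both. In M, Nfatc3 was at 0.673 times the level of Nfatc2, and in MR it was at 4.53 times that level. Nfatc1 itself stood at 25.5 TPM in M and 325 TPM in MR. When it was included, all 5 factors summed to 77.1 and 374, and Nfatc2 made up 34.2% of the NFAT messenger RNA in M and 1.57% in MR. Nfatc1 was at 0.967 times the level of Nfatc2 in M and at 55.4 times that level in MR. The listed coverage of Nfatc1, however, was only 64.9% in M and 30.3% in MR of what its FPKM corresponds to. From coverage, Nfatc1 was at 0.630 times the level of Nfatc2 in M and at 16.8 times in MR, and Nfatc2 made up 39.4% and 4.07% of the sum of all 5 factors. The shares without Nfatc1 were nearly the same from coverage, with 52.4% and 12.8% for Nfatc2.

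**Figure D2:**
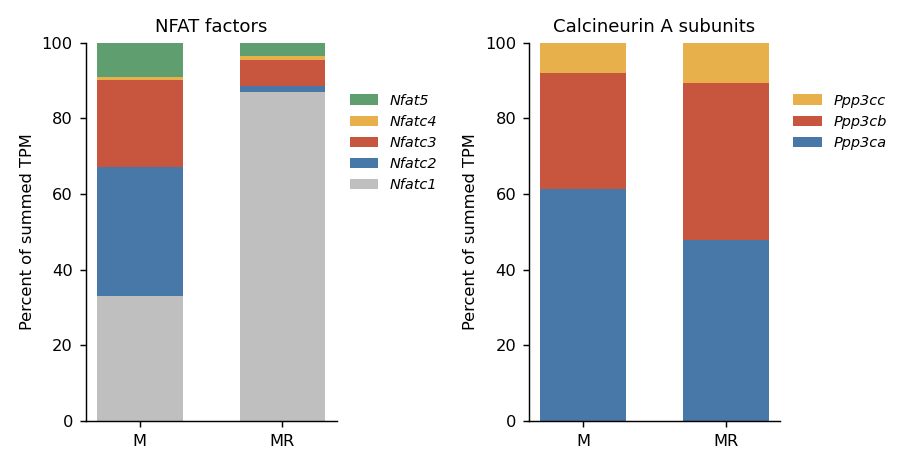
Percent of the summed TPM that each gene made up in M and MR, 1 library each, for the 5 NFAT factors (left) and the 3 calcineurin A subunits (right). Nfatc1 took 33.0% of the NFAT sum in M and 86.9% in MR, Nfatc2 took 34.2% and 1.57%, and Ppp3ca took 61.4% and 47.7% of the calcineurin A sum. From listed coverage in place of TPM, not drawn, the shares of Nfatc1 were 24.8% and 68.2%, those of Nfatc2 39.4% and 4.07%, and those of Ppp3ca 76.3% and 56.5%.

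The calcineurin subunits were abundant in both cultures and none had a log2 ratio beyond the limits in TPM. Ppp3r1, the regulatory B subunit that binds calcium, stood at 63.7 TPM in M and 81.7 TPM in MR. Its log2 ratio was 0.36, and the ratio of 1.28 had an interval of 1.18 to 1.40 from about 1019 and 1033 read pairs. A higher log2 ratio was found for 42.9% of all genes. Median-of-ratios scaling gave a log2 ratio of 0.17, below the interval, which does not cover the choice of scaling. The gene is annotated on the plus strand of chromosome 11 from 17159263 to 17200375. Ppp3r1 was at 0.788 times the summed level of the A subunits in M and at 0.866 times in MR.

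Ppp3ca, the catalytic A-alpha subunit, stood at 49.6 TPM in M and 45.1 TPM in MR. It was the other gene with a lower value in MR, but its log2 ratio was -0.13 and the interval of its ratio of 0.909 was 0.804 to 1.03, so that the difference was not detectable at this depth with the shortest transcript. The interval was 0.836 to 0.988 with the longest transcript. Ppp3ca lies on the plus strand of chromosome 3 from 136670124 to 136937727, and its loci began 11 bases and 34 bases before the annotated start in M and MR, respectively.

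Ppp3cb, the catalytic A-beta subunit, stood at 24.8 TPM in M and 39.3 TPM in MR. The log2 ratio was 0.65, and the ratio of 1.59 had an interval of 1.37 to 1.84 from about 322 and 404 read pairs. Its listed coverage was 16.9 in M and 33.6 in MR, which is 40.6% and 64.5% of the coverage that its FPKM corresponds to, and the log2 ratio from coverage per aligned Gb was 1.12 and past the limit. The gene occupies 20499364 to 20546573 of chromosome 14, minus strand, and the loci covered 91.1% of its exon bases in M and 93.3% in MR.

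Together with Ppp3cc, the third catalytic subunit gene, the A subunits had a summed level of 80.8 TPM in M and 94.4 TPM in MR. Ppp3ca made up 61.4% of the sum in M and 47.7% in MR, whereas Ppp3cb made up 30.7% and 41.7%. Ppp3ca was at 2.0 times the level of Ppp3cb in M and at 1.15 times in MR. With listed coverage, in which Ppp3cb is lower, these ratios were 4.93 and 1.78, and Ppp3cb made up 15.5% of the sum in M and 31.8% in MR. Ppp3cc made up 7.96% and 10.6%.

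Rcan1, a calcineurin inhibitor, had the largest difference in TPM among the 10 genes. Its level was 21.1 TPM in M and 103 TPM in MR, and the log2 ratio was 2.24. The ratio of 4.90 had an interval of 4.15 to 5.77 from an estimated 178 and 686 read pairs. Only 5.47% of all genes had a higher log2 ratio, and 88.7% of the genes compared had a lower TPM in MR, beside 61.7% in M. Relative to the summed calcineurin A subunits, Rcan1 was at 0.261 in M and 1.09 in MR.

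Rcan1 is annotated on chromosome 16, minus strand, between 92391953 and 92470867. It is known to be transcribed from a long and from a short form's start, and the start of the short form is known as a target of calcineurin and NFAT in other tissues. The locus reached from 92391953 to 92466186 in M and from 92391952 to 92466200 in MR. Both 5′ ends therefore lay at the long form's start, 40 and 54 bases upstream of the annotated first base of the long transcript. The short form begins 66069 bases further downstream. It shares 3 of its 4 exons with the long form, or 2008 of its 2190 bases, and a locus that starts at the long form spans both. The tables give 1 TPM for the whole locus, so that how much of the difference came from which form is not given by these values. In cultures of embryonic hematopoietic progenitors, the paper reports by quantitative PCR that the short form was induced by RANKL only in WT cells. Those are other cells than the bone marrow cells sequenced here.

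The RefSeq sequences before both starts of Rcan1 are shown because the loci of both cultures extended to the long start and across the short one. That of the long start is at chr16:92466170-92466419 and that of the short start at chr16:92400079-92400328, both on the minus strand, with capitals as above.
Rcan1, long start: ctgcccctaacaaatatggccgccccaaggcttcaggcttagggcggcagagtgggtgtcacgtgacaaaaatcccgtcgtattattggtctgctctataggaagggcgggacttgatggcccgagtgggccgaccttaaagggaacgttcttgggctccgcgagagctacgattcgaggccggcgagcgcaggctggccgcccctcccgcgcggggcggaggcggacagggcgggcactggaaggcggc
Rcan1, short start: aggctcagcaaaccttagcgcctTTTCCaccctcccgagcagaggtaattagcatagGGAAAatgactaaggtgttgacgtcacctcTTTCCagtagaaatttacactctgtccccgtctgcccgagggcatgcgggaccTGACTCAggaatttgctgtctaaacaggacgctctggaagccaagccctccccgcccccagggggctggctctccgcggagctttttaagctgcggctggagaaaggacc
The window of the long start holds 0 cores. That of the short start holds 3 cores, which lie 227, 193 and 163 bases before the start, and 1 TGANTCA motif at 110 bases before it. The AP-1 motif is found in 6.75% of all windows. No overlap between the motifs occurs in these windows.

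Rcan2, a related calcineurin inhibitor known mainly from brain and muscle, had no locus in M and a TPM of 6.38 in MR. No fold is given, since a locus missing in M may have been too low to be assembled there. Loci at the fifth percentile stood at 0.148 TPM in M and 0.239 TPM in MR. About 15 read pairs with the shortest transcript, or 93 with the longest, stood behind the value in MR, and 30.5% of the genes compared had a lower TPM. The shortest transcript has 536 bases, begins at 44026710 and spans only part of the locus given below. Rcan2 is annotated on the plus strand of chromosome 17 from 43801351 to 44039516. The MR locus reached from 43952998 to 44039472 and covered 78.2% of the exon bases. It began 1 base from the nearest annotated start, which is 151648 bases downstream of the first annotated start. The window before this internal start, at chr17:43952749-43952998 on the plus strand, is shown because the locus began directly after it.
Rcan2, internal start: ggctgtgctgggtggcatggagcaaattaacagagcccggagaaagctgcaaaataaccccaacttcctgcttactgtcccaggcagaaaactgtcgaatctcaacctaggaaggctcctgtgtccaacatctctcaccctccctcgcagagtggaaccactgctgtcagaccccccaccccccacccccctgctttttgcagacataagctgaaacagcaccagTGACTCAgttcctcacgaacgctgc
It holds 0 cores and 1 TGANTCA motif, which lies 25 bases before the start.

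The Rcan genes, with Rcan3, had a summed level of 26.6 TPM in M and 121 TPM in MR. Rcan1 made up 79.2% of the sum in M and 84.9% in MR, so that it was the main Rcan transcript in both cultures. Rcan2 made up 5.25% of the sum in MR, and Rcan3 made up 20.8% in M and 9.82% in MR. The summed Rcan level was 0.329 times that of the calcineurin A subunits in M and 1.29 times in MR.

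Dyrk1a, a kinase that primes NFAT factors for export from the nucleus, stood at 15.5 TPM in M and 19.3 TPM in MR. Its log2 ratio was 0.30. The ratio was 1.25 with an interval of 0.826 to 1.88, from about 45 and 44 read pairs, and a difference was not detectable at this depth with the shortest transcript. The interval was 1.10 to 1.41 with the longest transcript, from 499 and 491 read pairs. The shortest transcript has 521 bases and ends at 94665947, whereas the loci reached 94695402 in M and 94695047 in MR. It therefore spans only part of what was assembled. The gene lies on the plus strand of chromosome 16 from 94570010 to 94695517, 2099143 bases from the end of Rcan1. Its loci began 323 bases in M and 310 bases in MR upstream of the annotated start.

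**Figure D3:**
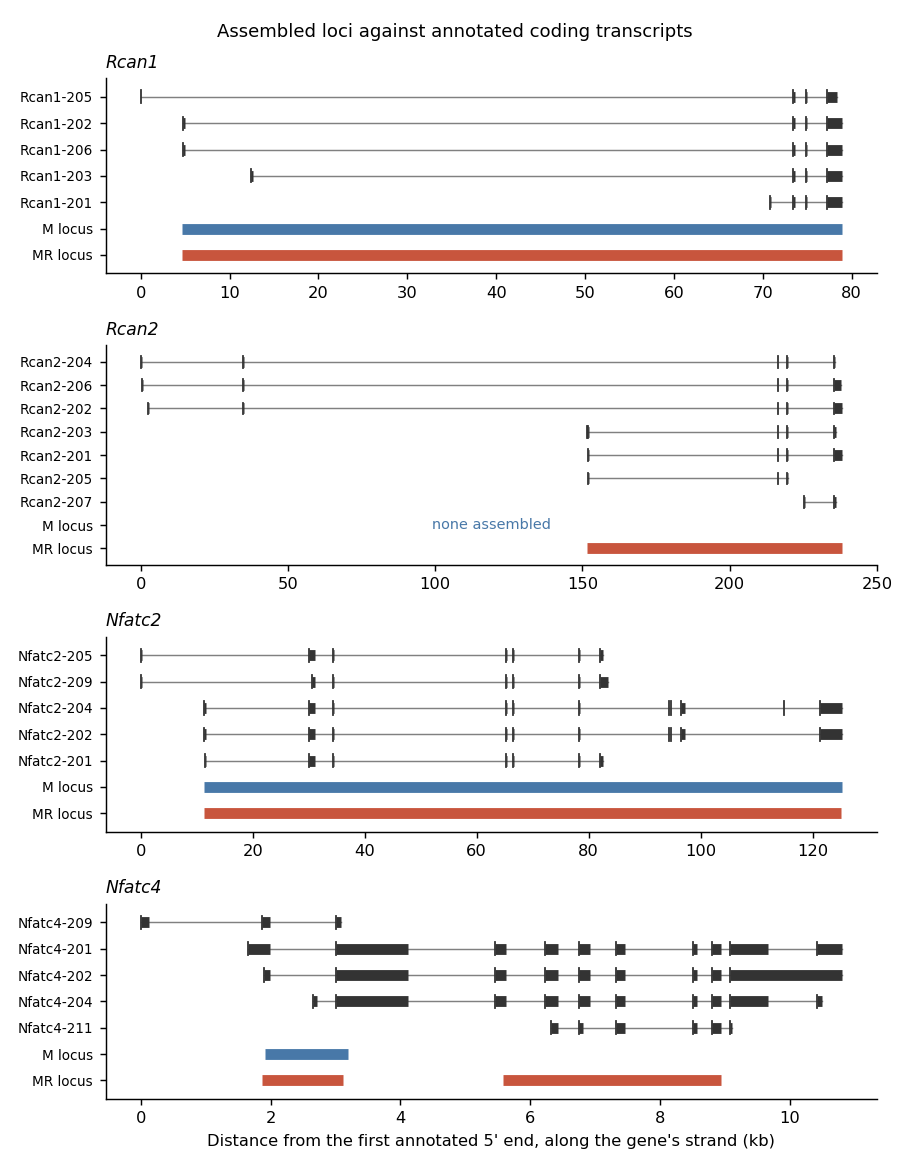
Assembled loci of M (blue) and MR (red) below the annotated coding transcripts (dark, exons as boxes) of Rcan1, Rcan2, Nfatc2 and Nfatc4, drawn to scale along each gene's strand in kb from the first annotated 5′ end. The Rcan1 and Nfatc2 loci of both cultures begin at the same annotated start, Rcan2 has a locus in MR alone that begins at an internal start, and Nfatc4 has fragments only. A bar marks the outer ends of a locus and not its exons.

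Of the 10 genes, 8 had 1 locus in each library, and for these the 5′ ends in M and MR were 3 to 249 bases apart and the 3′ ends 1 to 355 bases apart. The Ppp3r1 loci had the closest 5′ ends, at 3 bases, and the Dyrk1a loci the most distant 3′ ends, at 355 bases. The differences in level of Rcan1 and Nfatc2 were therefore found over loci with nearly the same outer ends in both cultures.

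**Figure D4:**
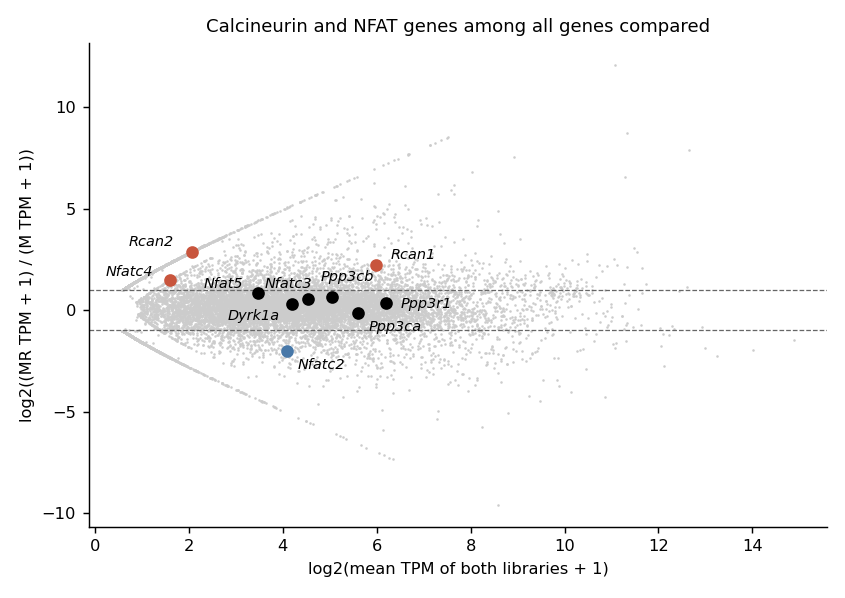
Log2 ratio of MR to M, with 1 added to each TPM, against the log2 mean TPM of both libraries plus 1, for the 13321 genes compared (gray) and the 10 genes named. Red points lie above 1 and the blue point below -1 (dashed lines). Rcan1 stands out at a high level, Nfatc2 lies below the bulk, and Rcan2 lies on the upper gray edge formed by genes without a locus in M.

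The other genes of the pathway were described by lists of known regulators and targets, 56 genes in all. Of these, 50 had a locus and 49 passed the same minimum TPM. The 49 include Mapk14 and Slc5a3, which have a shared locus, whereas the values over all genes leave such genes out. A log2 ratio above 1 was found for 9 of the 49, or 18.4%, Slc5a3 among them. A ratio below -1 was found for 4, or 8.16%. Of all genes, 21.1% and 13% were past these limits. The median of the 49 was 0.08, below the median of 0.21 of all genes.

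Among the other calcineurin subunits and inhibitors, 7 of 9 genes passed the minimum TPM, 2 were above the limit and 0 were below. Chp1, a calcineurin B homolog that can inhibit calcineurin, stood at 43.5 TPM in M and 179 TPM in MR, with a log2 ratio of 2.02. Akap1, an anchoring protein of the outer mitochondrial membrane, stood at 3.66 TPM in M and 19.6 TPM in MR, with a log2 ratio of 2.14. Rcan3, the remaining Rcan gene, was just inside the limit at 5.54 and 11.9, a log2 ratio of 0.98. Ppia, the binding protein of ciclosporin, was the most abundant gene of the list, with 907 TPM in M and 1458 TPM in MR, and Ppp3r2 and Akap5 had no locus.

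The calmodulins, which carry the calcium signal to calcineurin, and their kinases had 8 of 10 genes past the minimum TPM, 0 above the limit and 1 below it. Camk1d, a calmodulin-dependent kinase, stood at 20.8 TPM in M and 6.64 TPM in MR, with the 1 log2 ratio below the limit, -1.51.

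Of the NFAT kinases other than Dyrk1a, 11 of 12 had a locus and passed, with 1 above the limit and 1 below. Dyrk2, a relative of Dyrk1a, stood at 17.7 TPM in M and 83.8 TPM in MR, with a log2 ratio of 2.18. Mapk9, which encodes the stress kinase Jnk2, stood at 34.0 TPM in M and 15.5 TPM in MR, with a log2 ratio of -1.09. From coverage per aligned Gb its log2 ratio was -0.49, inside the limit. Csnk1a1, a casein kinase, was the most abundant in MR, at 62.9 TPM in M and 123.5 TPM in MR, with a log2 ratio of 0.96, just inside the limit. Dyrk4 had no locus, and the Mapk14 locus was shared with another gene.

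Among genes of NFAT transport and scaffolds, 5 of 7 passed, 1 was above the limit and 0 were below. Homer1, a scaffold protein, had no locus in M and a TPM of 8.08 in MR, while Kpnb1, an importin, was the most abundant at 75.0 in M and 63.7 in MR. Of the 3 genes of Nfatc1 turnover, Kbtbd11, an adaptor for the degradation of Nfatc1, had no locus in M and a TPM of 55.6 in MR. The ubiquitin ligases Cbl and Cblb lay between the limits, and Cbl was at 39.9 in M and 24.0 in MR.

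Of the tonicity genes known as Nfat5 targets, 3 of 6 were above the limit and 1 was below it, beside 21.1% and 13% of all genes. Of the 3 above, Slc6a12 entered only through MR and Slc5a3 has a shared locus. Hspa4l, a heat shock protein induced by osmotic stress, stood at 10.5 TPM in M and 29.1 TPM in MR, with a log2 ratio of 1.39. The betaine transporter Slc6a12 had no locus in M and a TPM of 3.93 in MR, whereas Hspa1b, an inducible heat shock protein, was at 3.23 in M and had no locus in MR. The inositol transporter Slc5a3 was at 12.6 and 87.0, but its locus was shared with the overlapping gene Mrps6, and its listed coverage was 21.1 in M and 19.7 in MR, which gives a log2 ratio of 0.16 per aligned Gb, inside the limit. Slc6a6, the taurine transporter, was the most abundant of the list, at 263 in M and 191 in MR, and lay between the limits.

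Calcineurin substrates other than NFAT had 9 of 9 genes past the minimum TPM. Bad, a promoter of apoptosis, was the 1 gene above the limit and the most abundant, with 58.7 TPM in M and 121 TPM in MR and a log2 ratio of 1.03. It was inside the limit with FPKM (0.96), with coverage per aligned Gb (0.69), with median-of-ratios scaling (0.84) and without the mitochondrial and most abundant genes (0.95). Tfeb, a lysosomal transcription factor, had a log2 ratio of -0.21 in TPM but 2.23 from coverage per aligned Gb. Mef2c, a transcription factor of the myocyte enhancer family, was the 1 below, with 9.16 TPM in M and 3.12 TPM in MR and a log2 ratio of -1.30.

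**Figure D5:**
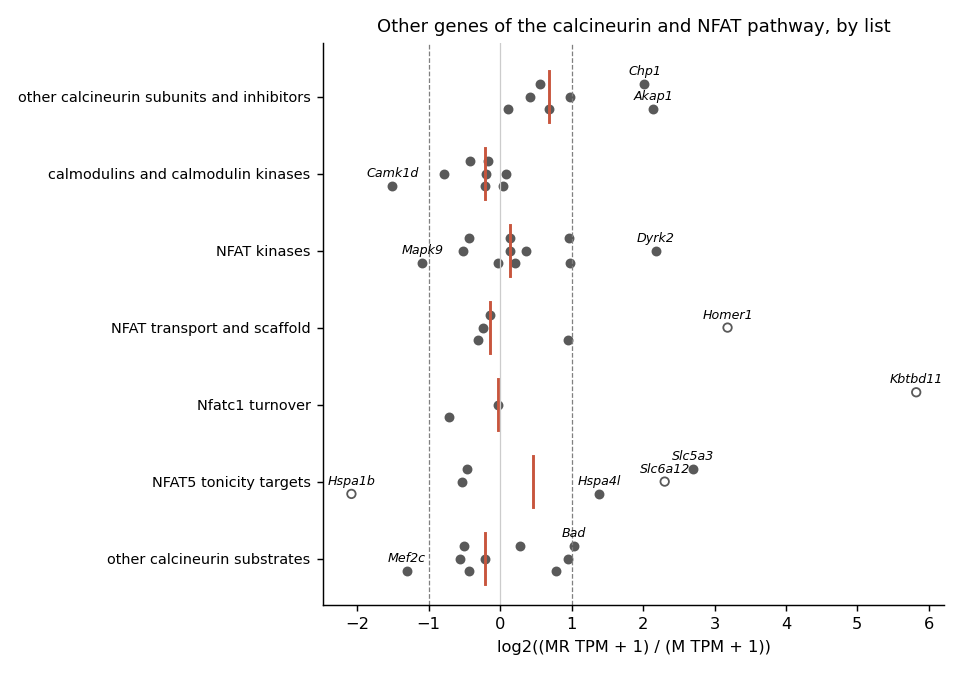
Log2 ratio of MR to M, with 1 added to each TPM, of every pathway gene that passed the minimum TPM, by list. Red bars are list medians, dashed lines mark 1 and -1, and open circles are genes with no locus in 1 of the libraries, whose position depends on the value added. Most points lie between the lines, with Chp1, Akap1, Dyrk2, Hspa4l, Slc5a3 and Bad above 1 and Camk1d, Mapk9 and Mef2c below -1 among the filled points.

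Markers of other cells are given beside the levels of Nfatc2 and Rcan1, since these genes are also expressed outside the osteoclast lineage. The T cell genes Cd3e, Cd3g, Cd3d, Lck and Cd2 and the natural killer cell genes Ncr1, Klrb1c and Prf1 had no locus in either library. The B cell genes, 4 of 4 with a locus in both libraries, had a summed level of 13.1 TPM in M and 8.50 TPM in MR. The neutrophil genes, 5 of 5 in both, summed to 1088 in M and 749 in MR. The macrophage genes, also 5 of 5 in both, summed to 5251 in M and 3267 in MR, and among them Adgre1, Mertk and Fcgr1 had log2 ratios of -2.20, -2.70 and -4.24, whereas Csf1r was at 0.32. The mast cell and basophil genes summed to 3.47 and 6.60, with Fcer1a and Ms4a2 without a locus, the stromal genes to 17.8 and 22.1, and the endothelial genes to 39.6 and 44.3, with Emcn without a locus. Among the erythroid genes, only Hba-a1 had a locus, at 2.11 in both. The part of these cells in the levels of Nfatc2 and Rcan1 was not tested.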

How the data were processed

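RNA from 2 cultures was sequenced by the authors, 1 library each, as paired reads of 150 bases. Per the study's methods, adaptors were removed with Trim Galore, reads were aligned to GRCm38 (mm10) with HISAT2, and StringTie was run on GENCODE vM27. Tool versions are not given in the sources used here. The authors deposited, for each entry, the coverage (read depth per base, not normalized for library size), the FPKM and the TPM. The deposited TPM of assembled loci add up to 1000000 per library. Rows named after genes hold another 87234 TPM (M) and 129264 TPM (MR), but their positions belong to another build (GRCm39), and they were not used.

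Each assembled locus, 19422 in M and 19922 in MR, was given to the GENCODE vM21 gene of compatible strand that had the largest number of exon bases inside the locus, with a minimum of 50. By this rule, 95.4% of the TPM in M and 96.9% in MR were given to genes, and the TPM of a gene was the sum over its loci. A locus was treated as shared when 50% or more of the exon bases of a further gene lay in it, and the counts over all genes use the 14241 genes with a locus of their own, of which 13321 reached 1 TPM in either library. Log2 ratios used a pseudocount of 1 TPM and a limit of 1, which is a rule of size and no test. On this scale the change of low genes is understated. The depth in aligned bases was taken as the modal quotient of coverage and FPKM over rows above an FPKM of 5, a quotient shared by 39.1% (M) and 42.5% (MR) of those rows. Estimated read pairs do not correct for duplicates, and intervals cover counting error only.

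Promoter windows of 250 bases were taken from RefSeq, which had 16 windows for 9 of the 10 genes. The assignment of loci was tried on simulated loci, built from the extents of annotated genes with slightly trimmed ends and the right strand. Such loci cannot show how fragmented, merged or unstranded loci are assigned. The text names the 10 genes and, in each pathway list, the genes past the limit and the most abundant gene. A single gene of these lists is not reported here by name. Genes without a locus, at the edge of the limit, with shared loci or with a call that depends on the setting were named in addition after their values were seen. The genes and lists were chosen with earlier results of these data known. The alternatives were another pseudocount, other minimum TPM values, FPKM or coverage in place of TPM, other scalings, a stricter limit and other rules for loci. Family shares from coverage were computed after the data had been seen. Computations were made in Python 3.11.15 (matplotlib 3.10.9, scipy 1.17.1, pandas 2.3.3 and numpy 2.4.6). The other measurements of the study were not analysed here.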

Additional observations from a re-analysis of the deposited data

Results flagged for a closer look

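A locus on the minus strand overlapped the 5′ part of Nfatc4, which is on the plus strand. It was assembled in MR with a TPM of 1.36 and a coverage of 1.37, reached from 55823063 to 55823401 on chromosome 14 and overlapped 122 exon bases of the gene. No such locus was assembled in M. It was singled out because it lies outside the values given to Nfatc4 and appears in the culture with RANKL alone. Whether the libraries kept strand is not given in the sources used here, and with 1 library per culture the difference was not tested.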

How the results depend on the processing

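No paired analysis was possible because there was 1 library per culture, and no replicate could be left out for the same reason. Of 212 values of the 10 genes and of counts and medians under 12 alternatives, 190 stayed within the set margin of the main value (1.5 times for counts), 22 moved and 0 reversed. Rcan1 stayed above the limit under the 10 settings other than the main ones that apply to it and leave the limit at 1, between 2.05 and 2.29, and Nfatc2 below it under 10 of 10, between -2.17 and -1.86. With a TPM of at least 10, 1584 of 8622 genes were above the limit and 966 below. Nfatc4 and Rcan2 then dropped out, and 1 of the remaining 8 genes was above. Of 41 pathway genes, 2 were below. These counts follow from the fewer genes compared. With a log2 limit of 2, 927 genes were above and 495 below, 0 of the 10 genes were below and 1 pathway gene was below. With a locus required in both libraries, chosen after seeing the data, 1788 genes were above and 1093 below. Coverage per aligned Gb put Ppp3cb at 1.12 and Nfatc4 at 0.79, and the longest locus alone put Nfatc4 at 0.77; the cause was not tested. Among the pathway genes, coverage per aligned Gb ended the calls of Mapk9 (-0.49), Slc5a3 (0.16) and Bad (0.69) and turned Tfeb from -0.21 to 2.23, and Mef2d, at 0.77, was then past the limit at 1.08. Bad was also inside the limit with FPKM (0.96), median-of-ratios scaling (0.84) and without the most abundant genes (0.95). A pseudocount of 0.1 TPM put Rcan3, Mapk8 and Lrrk2 past the limit, at 1.09, 1.10 and 1.08. Median-of-ratios scaling gave -0.32 for Ppp3ca and 0.17 for Ppp3r1. The value of Rcan2, which had no locus in M, depends on the pseudocount and reached 6.02 with 0.1 TPM. Depth limits Nfatc4 and Rcan2, and single libraries limit every comparison.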

Other observations

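Outside the values given to the 10 genes, a minus-strand locus within an intron of Ppp3ca had a TPM of 1.27 in M and none was assembled in MR. A plus-strand locus within an intron of Dyrk1a, of 70 bases, had a TPM of 0.595 in M and none was assembled in MR. Neither overlapped an exon base of the gene.

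RefSeq gave 16 windows before the starts of 9 of the 10 genes. Of these, 10 held at least 1 GGAAA core on either strand, beside 55.6% of all windows. The window of Ppp3cb and that of Nfatc4 each held 3 cores, as did that of the upstream start of Nfatc2, which lies 11342 bases before the 5′ end of the Nfatc2 locus in M. Those of Nfat5 held 2 and those of Ppp3r1 held 0. Of the Rcan1 windows, that of the long start held 0 and that of the short start held 3. At least 3 cores are found in 6.38% of all windows. A link between cores and levels was not tested.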
